A study of Mus musculus with 16 samples.

Results

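Chemokine receptors are seven-helix membrane proteins that steer white blood cells along gradients of secreted chemokines, mostly through inhibitory G proteins. On myeloid cells CCR2 carries Ly6C+ monocytes out of the bone marrow and into inflamed or tumour tissue, while CX3CR1, the fractalkine receptor, marks patrolling monocytes and many resident and tumour macrophages. Atypical members such as ACKR3 and CCRL2 bind chemokines or chemerin without the usual G-protein signal and instead remove or present them. The 8 genes Ccr1, Ccr2, Ccr3, Cx3cr1, Cxcr2, Cxcr4, Ackr3 and Ccrl2 are described here. They were chosen by name, through the symbols that the authors' deposited tables pair with the gene IDs, and all 8 were found among the 30819 genes of the series. In GENCODE M21 (GRCm38), Ccr1 lies at chr9:123962124-123968692, Ccr3 at chr9:124021972-124031689, Ccr2 at chr9:124101950-124113557, Cx3cr1 at chr9:119901616-120069879 and Ccrl2 at chr9:111054486-111057519. Ackr3 lies at chr1:90203980-90216751, Cxcr2 at chr1:74153989-74161246 and Cxcr4 at chr1:128588199-128592293, and all 8 are protein-coding.

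The libraries came from MN/MCA1 tumours, a transplanted mouse sarcoma, grown for 21 days under the skin of C57BL/6J mice. Tumour-bearing hosts were either C3-/- mice, which lack complement component C3 in the host, or C3 wild-type mice, and 4 mice of each genotype gave 2 libraries each. Macrophages (sorted as Ly6G-, CD11c-, Ly6C- and F4/80+) and monocytes (Ly6G-, CD11c-, F4/80- and Ly6C+), all CD45+ and CD11b+, were taken from the same tumours. The 4 groups of 4 libraries are therefore knockout macrophages and knockout monocytes of mice 6 to 9, and wild-type macrophages and wild-type monocytes of mice 1 to 4. The injected sarcoma cells were the same in both genotypes, and the labels do not say whether these cells make C3. The mice's age is not given in the sources used here.

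Depth was 18689654 to 29035033 recovered reads per library, and values are given as reads divided by each library's size factor ("normalized reads"). C3 itself averaged 1234 ± 168 normalized reads in knockout macrophages and 4008 ± 858 in wild-type macrophages, and 4925 ± 288 in knockout monocytes against 15158 ± 718 in wild-type monocytes (SD, n = 4 each). C3 reads thus persisted at a lower level in the knockout libraries, and which part of the gene they cover is not shown by a count per gene. The C3 difference passed in macrophages and in monocytes (log2 differences -1.13 and -1.22, limma, adjusted p = 0.000215 and 8.81e-08). Ly6c2, Adgre1 and Ly6g followed the sort labels. Ly6c2 averaged 5.21 normalized reads in knockout macrophages against 14507 in knockout monocytes, and 10.3 in wild-type macrophages against 16216 in wild-type monocytes. Adgre1, which encodes F4/80, averaged 26349 normalized reads in knockout macrophages against 7349 in knockout monocytes, and 27261 in wild-type macrophages against 5929 in wild-type monocytes. Ly6g did not exceed 3.71 normalized reads in any library. Itgax, which encodes the CD11c used to exclude cells, still averaged 2649 to 6201 normalized reads across the 4 groups. Itgax was lower in knockout than in wild-type monocytes, at 2649 against 4421 (limma, adjusted p = 0.0386). In macrophages it had 4979 against 6201 and did not pass (adjusted p = 0.0795). Itgam, which encodes CD11b, was lower in knockout macrophages (3731 against 4882) and knockout monocytes (6107 against 9447; limma, adjusted p = 0.0133 and 0.0195). In sorted pools such as these, fewer cells expressing a gene and less RNA per cell cannot be told apart.

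Per kilobase of exon, Cx3cr1, Ccr1, Ccr2 and Ccrl2 were the 4 highest of the 8 genes in all 4 groups, and Ackr3, Ccr3 and Cxcr2 were the lowest. Cx3cr1 led in knockout macrophages at 7201 ± 264 normalized reads per kb and in wild-type macrophages at 7325 ± 120. Ccr1 led in knockout monocytes at 7771 ± 195 and in wild-type monocytes at 8354 ± 837 normalized reads per kb, but its libraries overlapped those of the next gene, Ccrl2, in both. Cxcr4, the CXCL12 receptor, was the fifth gene in every group, at 454 ± 114 per kb in knockout macrophages, 332 ± 76.5 in wild-type macrophages, 847 ± 86.5 in knockout monocytes and 629 ± 90.8 in wild-type monocytes. Ackr3, Ccr3 and Cxcr2 were the rare genes, between 0.0754 per kb for Cxcr2 in knockout macrophages and 180 ± 18 for Ackr3 in wild-type monocytes. The length of Cx3cr1 is that of all its annotated exons, and 78 of its exonic bases are shared with an antisense gene on the other strand, so its level per kb is less certain.

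**Figure D1:**
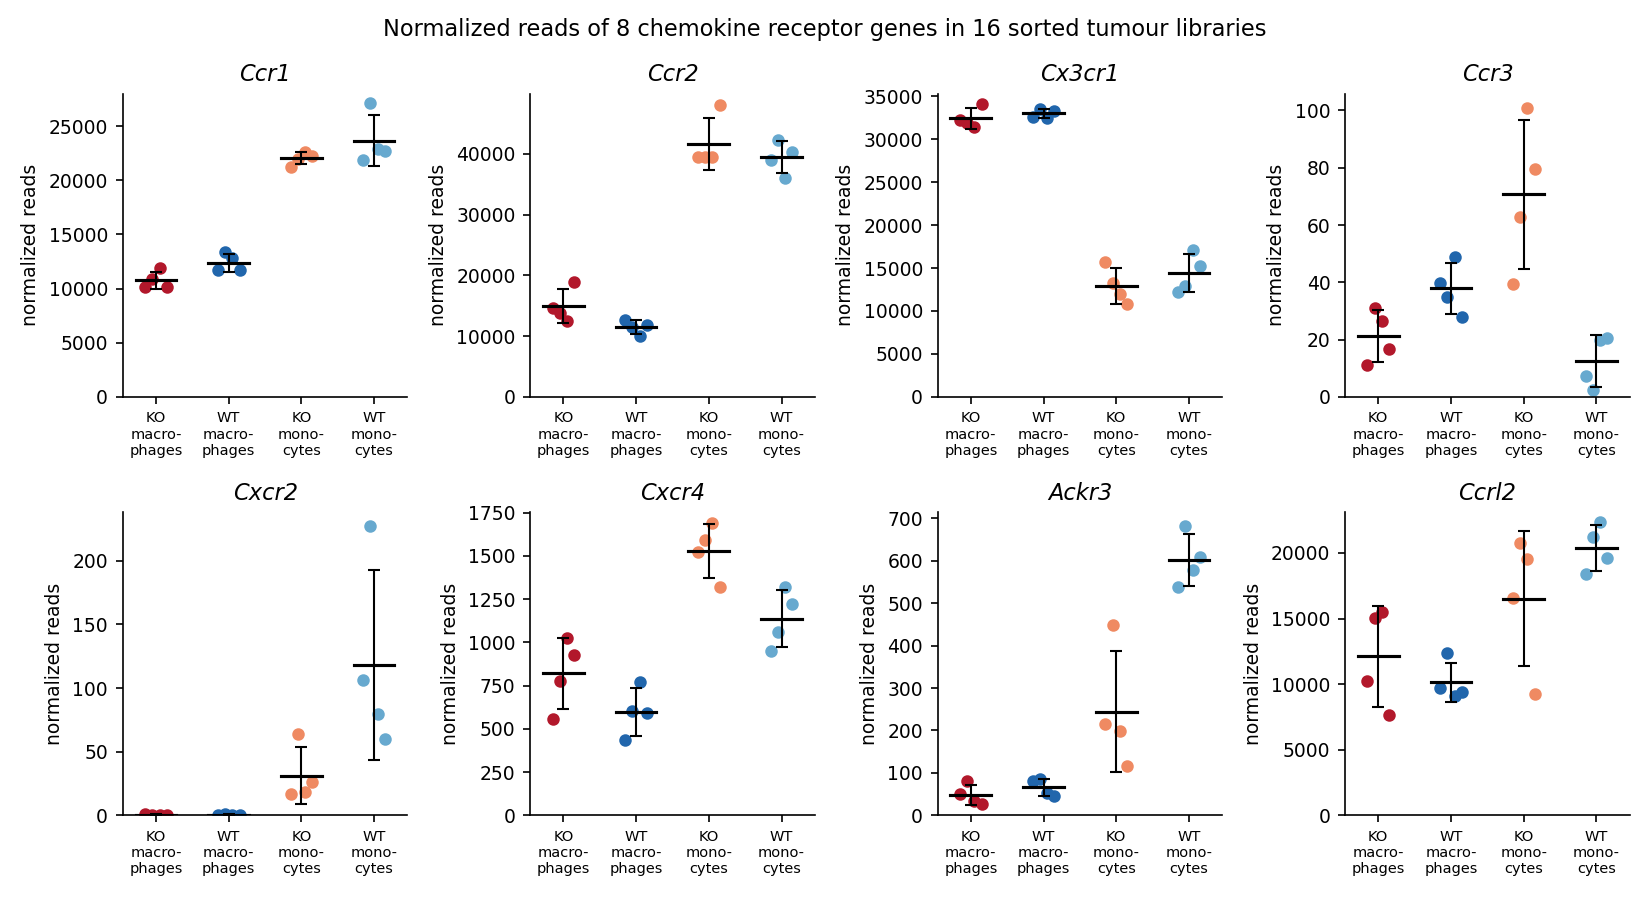
Normalized reads (linear axes from 0) of the 8 genes in 16 libraries, by group, with KO for C3-/- and WT for wild type. Points are libraries, horizontal lines are means and bars are SDs of 4 libraries. Cx3cr1 stands higher in macrophages, Ccr1, Ccr2, Cxcr2, Cxcr4 and Ackr3 stand higher in monocytes, and Ccr3 is highest in knockout monocytes, with a mean of 70.8 normalized reads.

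The inflammatory receptors were compared first between macrophages and monocytes, which are stages of one lineage in tumours. Ccr2, the receptor for CCL2 and CCL7, had 14624, 13791, 12540 and 18935 normalized reads in macrophages of knockout mice 6 to 9, against 39482, 39531, 39583 and 48056 in monocytes of the same mice. In wild-type mice 1 to 4 it had 12634, 11457, 9973 and 11855 normalized reads in macrophages, against 39050, 42362, 36107 and 40290 in monocytes. The macrophage libraries lay below every monocyte library in both genotypes, yet kept 35.9% of the monocyte mean in knockout mice and 29.1% in wild-type mice. On the deposited log2 scale Ccr2 was lower in macrophages by a difference of -1.07 ± 0.09 in knockout mice (SE, limma, Benjamini-Hochberg adjusted p = 4.75e-07) and of -1.27 ± 0.06 in wild-type mice (limma, adjusted p = 9.69e-09). That scale pulls values towards each gene's mean, so its differences are smaller than the log2 ratio of the reads.

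Ccr1, the receptor for CCL3, CCL5, CCL6 and CCL9, showed the same order with a smaller difference. It had 10178, 10889, 11863 and 10144 normalized reads in knockout macrophages, against 21265, 22000, 22574 and 22224 in knockout monocytes. In wild-type mice it had 11736, 13339, 12846 and 11669 normalized reads in macrophages, against 21849, 27154, 22924 and 22743 in monocytes. Its macrophage mean was 48.9% of the monocyte mean in knockout mice and 52.4% in wild-type mice, and both differences passed (limma, adjusted p = 1.7e-07 and 1.53e-06).

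Cx3cr1 ran the other way. The gene had 32247, 31888, 31463 and 34159 normalized reads in knockout macrophages, against 15741, 13230, 12014 and 10854 in knockout monocytes. In wild-type mice it had 32643, 33565, 32442 and 33338 normalized reads in macrophages, against 12263, 12897, 17097 and 15291 in monocytes. Cx3cr1 was 2.5-fold higher in knockout macrophages than in knockout monocytes (log2 difference 0.95 ± 0.07, limma, adjusted p = 2.96e-07) and 2.29-fold higher in wild-type macrophages than in wild-type monocytes (0.87 ± 0.07, limma, adjusted p = 6.72e-07). Its spread was far tighter in macrophages than in monocytes, with an SD of 1190 around 32439 normalized reads in knockout macrophages and 539 around 32997 in wild-type macrophages, against 2092 around 12960 in knockout monocytes and 2228 around 14387 in wild-type monocytes.

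The ratio of Cx3cr1 to Ccr2 within a library, each per length, condensed this exchange of receptors. It was 3.31, 3.47, 3.76 and 2.71 in knockout macrophages and 3.88, 4.4, 4.88 and 4.22 in wild-type macrophages. Monocytes had ratios of 0.598, 0.502, 0.455 and 0.339 in knockout mice and 0.471, 0.457, 0.711 and 0.569 in wild-type mice. Knockout macrophages lay below wild-type macrophages in this ratio without overlap. It is given as a description with no test, since the pair was picked after the values had been seen.

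The RefSeq promoters (GRCm38.p6) of Ccr2 at chr9:124101933-124102232 on the plus strand and of Cx3cr1 at chr9:120068247-120068546 on the minus strand are shown because these genes ran in opposite directions. Each covers 250 bases before and 50 bases after the annotated start. Capitals mark matches, on either strand, to GAGGAA (core of the PU.1 site), TTNNGNAA (C/EBP), ACGTG (core of the hypoxia response element), AGATAA (site of the GATA factors), an interferon response element and TATAAA (core promoter box).
Ccr2: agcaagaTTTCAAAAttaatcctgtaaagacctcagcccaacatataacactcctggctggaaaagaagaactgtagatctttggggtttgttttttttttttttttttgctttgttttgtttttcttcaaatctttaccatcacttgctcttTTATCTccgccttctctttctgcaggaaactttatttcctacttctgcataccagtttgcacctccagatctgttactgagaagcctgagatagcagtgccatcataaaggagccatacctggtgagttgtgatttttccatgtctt
Cx3cr1: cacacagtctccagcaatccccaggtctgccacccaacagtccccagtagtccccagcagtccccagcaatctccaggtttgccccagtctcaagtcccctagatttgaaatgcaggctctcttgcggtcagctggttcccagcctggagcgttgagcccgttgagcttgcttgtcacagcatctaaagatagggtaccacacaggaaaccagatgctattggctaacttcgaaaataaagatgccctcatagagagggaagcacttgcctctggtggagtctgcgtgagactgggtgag
Ccr2 held a TTNNGNAA match from base -243 to -236 and an AGATAA match from -97 to -92 relative to the start, both on the minus strand of the gene. None of these patterns lay in the Cx3cr1 window, which had a GC content of 54.3% against 38.0% for Ccr2. Among 27025 mouse promoters of the same length, 40.7% held TTNNGNAA, 28.3% GAGGAA, 19.7% ACGTG, 14.2% TATAAA, 11.4% AGATAA and 3.49% the interferon response element.

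Cxcr2, the neutrophil receptor for CXCL1, CXCL2 and related chemokines, was a monocyte transcript in these sorts. Knockout macrophages held 1 Cxcr2 read in 4 libraries against 122 reads in the 4 knockout monocyte libraries, and wild-type macrophages held 1 read against 403 in wild-type monocytes. Scaled for depth, the excess in monocytes over macrophages was 128-fold in knockout mice (95% exact counting interval 22.6 to 5110) and 475-fold in wild-type mice (84.8 to 18800). Such intervals cover counting error only. Cxcr2 passed the filter on low values through the monocyte libraries alone, so its calls between cell types carry no weight of their own.

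Cxcr4 retains cells in the bone marrow and in tissues that make CXCL12. It had 555, 775, 1027 and 925 normalized reads in knockout macrophages, against 1520, 1591, 1691 and 1321 in knockout monocytes. Wild-type macrophages had 434, 603, 773 and 591 normalized reads of Cxcr4, against 951, 1059, 1320 and 1220 in wild-type monocytes. Macrophages were lower than monocytes in each of the 8 mice, at 53.6% of the monocyte mean in knockout mice (limma, adjusted p = 0.00059) and 52.8% in wild-type mice (limma, adjusted p = 0.000602).

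Ackr3, which takes up CXCL12 and CXCL11, had 49.7, 81.1, 32.8 and 27.5 normalized reads in knockout macrophages, against 215, 448, 199 and 116 in knockout monocytes. In wild-type mice it had 81.7, 85.3, 52.6 and 44.8 normalized reads in macrophages, against 538, 682, 579 and 608 in monocytes. Macrophages held 19.5% of the monocyte mean in knockout mice (limma, adjusted p = 0.00169) and 11% in wild-type mice (limma, adjusted p = 6.38e-08).

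Ccrl2, which binds chemerin and presents it to neighbouring cells, had 10235, 15047, 15533 and 7646 normalized reads in knockout macrophages, against 16530, 20720, 19522 and 9245 in knockout monocytes. Wild-type macrophages had 9721, 12370, 9069 and 9364 normalized reads, against 18393, 21193, 22383 and 19581 in wild-type monocytes. The wild-type groups did not overlap and the difference of -0.73 ± 0.07 passed (limma, adjusted p = 4.84e-06). In knockout mice the groups overlapped and the difference of -0.31 ± 0.23 did not pass (limma, adjusted p = 0.28), with mouse 9 lowest in both cell types. Within each knockout mouse, however, macrophages were the lower of the pair, by 0.19 to 0.49 on the log2 scale, and with the mouse as a replicate block the same difference passed (limma, adjusted p = 0.00083). Without the monocytes of mouse 9 it passed as well, at a difference of -0.5 (limma, adjusted p = 0.0457).

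**Figure D2:**
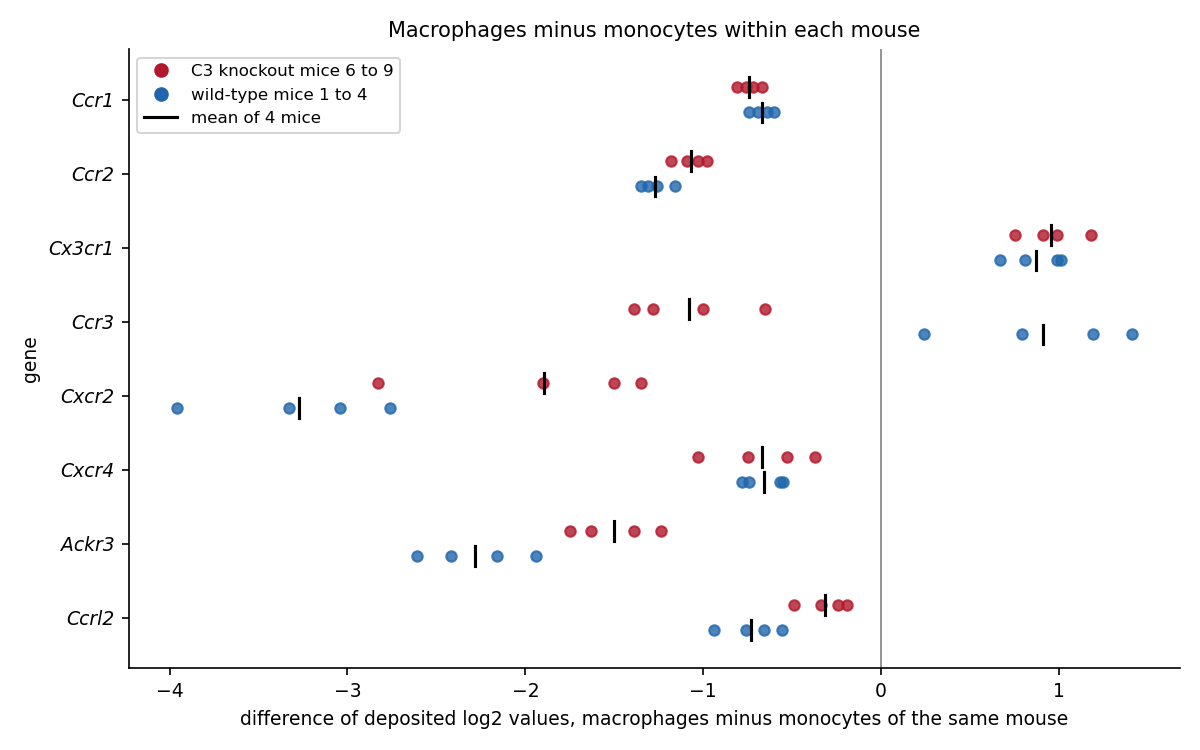
Deposited log2 value in macrophages minus that in monocytes of the same mouse, for the 8 genes. Red points are knockout mice 6 to 9, blue points are wild-type mice 1 to 4, and black ticks are means of 4 mice. Every mouse lies above 0 for Cx3cr1 and below 0 for Ccr1, Ccr2, Cxcr2, Cxcr4, Ackr3 and Ccrl2, whereas for Ccr3 the knockout mice lie below 0 and the wild-type mice above it.

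Leaving out Cxcr2, which passed the filter through monocytes alone, 6 of the other 7 genes differed between macrophages and monocytes in knockout mice, 1 higher and 5 lower, where 60.5% of all 12772 tested genes did, 31.0% higher and 29.6% lower (limma, adjusted p under 0.05). In wild-type mice all 7 differed, 2 higher and 5 lower, where 63.4% of 12769 tested genes did, 31.7% higher and 31.7% lower. Differences between these cell types were the rule for any gene, so the counts say little about receptors as a class. The normalized reads of macrophages and monocytes did not overlap for 6 of these 7 receptors in knockout mice and for 7 in wild-type mice, against 55.2% and 57.6% of all tested genes.

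Ccr3 was the gene whose cell-type order turned with genotype. CCR3 is the eotaxin receptor, best known from eosinophils. It had 11, 31.1, 26.5 and 16.8 normalized reads in knockout macrophages, against 39.5, 62.7, 101 and 79.6 in knockout monocytes. Wild-type macrophages had 39.9, 34.8, 48.9 and 27.9 normalized reads, against 7.41, 2.57, 19.7 and 20.7 in wild-type monocytes. In knockout mice every macrophage library lay below every monocyte library (log2 difference -1.08 ± 0.22, limma, adjusted p = 0.00113), and in wild-type mice every macrophage library lay above them (0.91 ± 0.22, limma, adjusted p = 0.00412).

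The estimated effect of genotype on Ccr3 had opposite signs in the 2 cell types, and it passed in monocytes. Ccr3 rose 5.61-fold in knockout monocytes over wild-type monocytes, at 70.8 ± 26.2 against 12.6 ± 9.02 normalized reads (log2 difference 1.47 ± 0.26, limma, adjusted p = 0.00852; higher in 4 of 4 libraries). In macrophages it averaged 21.4 ± 9.1 normalized reads in knockout mice and 37.9 ± 8.86 in wild-type mice, and the difference of -0.51 ± 0.19 did not pass (limma, adjusted p = 0.147). The knockout effect in macrophages minus that in monocytes was -1.98 ± 0.34 for Ccr3 (limma interaction, adjusted p = 0.00845). It was the only one of the 8 genes with a difference of this kind, at a background of 0.617% of 13134 genes tested, 0.358% with a positive and 0.259% with a negative value. With raw reads of 2 to 105 per library, Ccr3 is a rare transcript and its levels carry wide counting error.

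Markers of eosinophils were examined beside Ccr3 in the monocyte libraries, where 2 of 5 could be tested and neither was called. Over all tested genes 3.32% were called between genotypes in monocytes. The 5 markers analysed here (Siglecf, Il5ra, Prg2, Ear6 and Alox15) summed to 93.9 to 309 normalized reads in knockout monocytes and to 28.2 to 83.9 in wild-type monocytes. Il5ra, the interleukin 5 receptor chain, had 55 reads in all in knockout monocytes and 7 in wild-type monocytes. Siglecf averaged 56.7 ± 18.6 normalized reads in knockout monocytes and 28.1 ± 6.3 in wild-type monocytes, a difference of 0.62 ± 0.19 that did not pass (limma, adjusted p = 0.1). Alox15 averaged 141 normalized reads of a mean sum of 213 in knockout monocytes, and 26.3 of 57.3 in wild-type monocytes. Its difference of 1.6 ± 0.37 did not pass either (limma, adjusted p = 0.052). Alox15 was also present in macrophages, with means of 118 in knockout and 97.6 in wild-type mice. The granule gene Prg2 was near 0, with 4 reads in knockout monocytes and none in wild-type monocytes, and Ear6 had 4 reads in each. Ear6 was at 0 in all macrophage libraries and Prg2 at 0 in wild-type macrophages. In macrophages the sum ranged from 41.3 to 191 in knockout mice and from 30.3 to 340 in wild-type mice, groups that overlapped, and its highest library, of wild-type mouse 1, held 333 normalized reads of Alox15. The part of these markers in the Ccr3 result was not tested.

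The comparison of knockout with wild-type hosts addresses the role of host complement C3 in tumour-infiltrating myeloid cells. In monocytes it touched 2 of the 8 receptors, Ccr3, which rose, and Ackr3, which fell, where 3.32% of 12867 tested genes were called, 1.4% higher and 1.92% lower (limma, adjusted p under 0.05). Ackr3 fell to 245 ± 143 normalized reads in knockout monocytes, against 602 ± 60.3 in wild-type monocytes (SD, n = 4 each). Its log2 difference was -1.09 ± 0.24 (limma, adjusted p = 0.0435), and all 4 knockout libraries lay below the wild-type libraries. This call was close to the threshold. It was lost on leaving out any library except that of knockout mouse 7, with adjusted p between 0.0563 and 0.123, and without mouse 7, the highest knockout library, the difference was -1.34 (limma, adjusted p = 0.00065).

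Genes of the hypoxia response were examined beside Ackr3. The 15 genes of that list summed to 120887, 153610, 136709 and 110343 normalized reads in monocytes of knockout mice 6 to 9, against 155141, 197181, 162334 and 177640 in those of wild-type mice 1 to 4. Every knockout library lay below every wild-type library, and knockout mouse 7 was highest of its group in both the sum and Ackr3. Of the 14 list genes tested in monocytes 2 fell and none rose, where 1.92% of all tested genes fell and 1.4% rose. Slc16a3, a lactate exporter, fell by 0.51 and Egln3, an oxygen-sensing hydroxylase, by 0.96 on the log2 scale (limma, adjusted p = 0.00734 and 0.0261). The median difference of the tested list genes was -0.38, beside -0.01 over all genes. Fibroblast and endothelial markers, other cells that can carry Ackr3, summed to 1453 to 6463 normalized reads in knockout monocytes and 4092 to 7232 in wild-type monocytes, over 11 genes with none at 0 in either group. Of the 9 tested, Kdr, an endothelial receptor, was the 1 called, where 3.32% of all tested genes were called. Kdr rose, at 346 normalized reads in knockout monocytes and 152 in wild-type monocytes (limma, adjusted p = 0.0106). Kdr rose in macrophages too, at 794 normalized reads in knockout and 272 in wild-type macrophages (limma, adjusted p = 0.000444). The endothelial markers Pecam1 and Cdh5 averaged 246 and 50.8 normalized reads in knockout monocytes, against 300 and 68.6 in wild-type monocytes. Neither passed (limma, adjusted p = 0.495 and 0.702). The part of either list in the Ackr3 result was not tested.

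The other receptors did not pass between genotypes in monocytes. Cxcr2 had 16.9, 63.9, 18.3 and 26 normalized reads in knockout monocytes, against 106, 227, 79.8 and 60.0 in wild-type monocytes, so that mouse 7 of the knockout group overlapped mouse 4 of the wild-type group. Its mean was 26.4% of the wild-type mean, and the log2 difference of -1.4 ± 0.35 fell short of the threshold (limma, adjusted p = 0.0646). The authors' deposited table does call Cxcr2 lower in knockout monocytes, with a log2 difference of -1.93 once turned to knockout over wild type and an adjusted p of 0.00433. It passed in 4 of 16 other settings, that table included, and another of them left out knockout mouse 7 (difference -1.68, limma, adjusted p = 0.0189). The summed neutrophil markers overlapped between the groups, with 12 genes summing to 7400 to 12695 normalized reads in knockout monocytes and 8785 to 12834 in wild-type monocytes. Csf3r and Mmp8 made up most of the sum, averaging 4597 and 2469 in knockout monocytes and 4086 and 3416 in wild-type monocytes. Csf3r also held 1688 of the mean sum of 1740 in knockout macrophages. Of the 8 list genes tested in monocytes, Retnlg was the 1 called, where 3.32% of all tested genes were called. Retnlg rose by 2.39 on the log2 scale (limma, adjusted p = 0.00794). S100a8 averaged 417 normalized reads in knockout monocytes and 1782 in wild-type monocytes, Lcn2 308 and 750, and Elane 15.7 and 53.4. These 3 markers lay lower in every knockout library than in any wild-type library, the direction of Cxcr2, and none passed (limma, adjusted p = 0.187, 0.167 and 0.116). Other markers of the list went the opposite way. Ngp, Camp and Ltf averaged 505, 139 and 377 normalized reads in knockout monocytes, against 2.06, 1.46 and 11.7 in wild-type monocytes. Their groups overlapped, Ngp and Camp were not tested and Ltf did not pass (limma, adjusted p = 0.5). Ly6g, the surface marker used to remove neutrophils, had 7 reads in all in knockout monocytes and 4 in wild-type monocytes. The part of these markers in the Cxcr2 values was not tested.

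Cxcr4 averaged 1531 ± 156 normalized reads in knockout monocytes and 1137 ± 164 in wild-type monocytes. The groups were barely apart, with 1321 normalized reads in the lowest knockout library (mouse 9) and 1320 in the highest wild-type library (mouse 3), which had the same deposited log2 value of 10.24. Its log2 difference of 0.32 ± 0.08 did not pass (limma, adjusted p = 0.0625), although it did without wild-type mouse 3 (adjusted p = 0.0482). Of the 8 receptors 3, namely Ccr3, Cxcr4 and Ackr3, showed no overlap between genotypes in monocytes, against 11.1% of all tested genes, and for Cxcr4 this rested on about 1 read. For such a gene the exact two-sided permutation test of 4 against 4 libraries gives p = 0.0286, the smallest it can give. Ccrl2, Cx3cr1, Ccr1 and Ccr2 were within 1.24-fold of each other between genotypes in monocytes, with 95% intervals of the log2 difference that all included 0.

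In macrophages none of the 7 receptors tested was called between genotypes, where 5.7% of 12568 genes were, 2.57% higher and 3.13% lower (limma, adjusted p under 0.05), and 3 had an unadjusted p under 0.05. These were Ccr2, Ccr1 and Ccr3. Ccr2 averaged 14973 ± 2777 normalized reads in knockout macrophages and 11480 ± 1117 in wild-type macrophages, a difference of 0.25 ± 0.08 with a 95% interval of 0.07 to 0.44 (limma, adjusted p = 0.114). The authors' deposited table does pass Ccr2 there, with an adjusted p of 0.0236 and a log2 difference of 0.38 once its direction is turned to knockout over wild type. Without the macrophages of mouse 9, the highest knockout library, the difference was 0.17 (limma, adjusted p = 0.175). Ccr1 averaged 10769 ± 806 normalized reads in knockout macrophages and 12397 ± 828 in wild-type macrophages (log2 difference -0.14 ± 0.05, limma, adjusted p = 0.129). No receptor separated knockout from wild-type macrophages without overlap, against 13.1% of tested genes that did.

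Cx3cr1 in macrophages was the best-determined of these values, with a genotype difference of -0.02 and a 95% interval of -0.1 to 0.06. Cxcr4 differed by 0.31 ± 0.15, Ackr3 by -0.31 ± 0.2 and Ccrl2 by 0.15 ± 0.16 in macrophages, none past the threshold (limma, adjusted p between 0.31 and 0.687). Apart from Ccr3, the genotype effects were not shown to differ between the cell types. The interaction was 0.78 ± 0.34 for Ackr3 (limma, adjusted p = 0.395). That of Cxcr2, 1.37 ± 0.4 (limma, adjusted p = 0.151), carries no weight of its own. Macrophages held 1 Cxcr2 read in each genotype, so a macrophage effect could not be seen, and the gene passed the filter through monocytes alone.

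**Figure D3:**
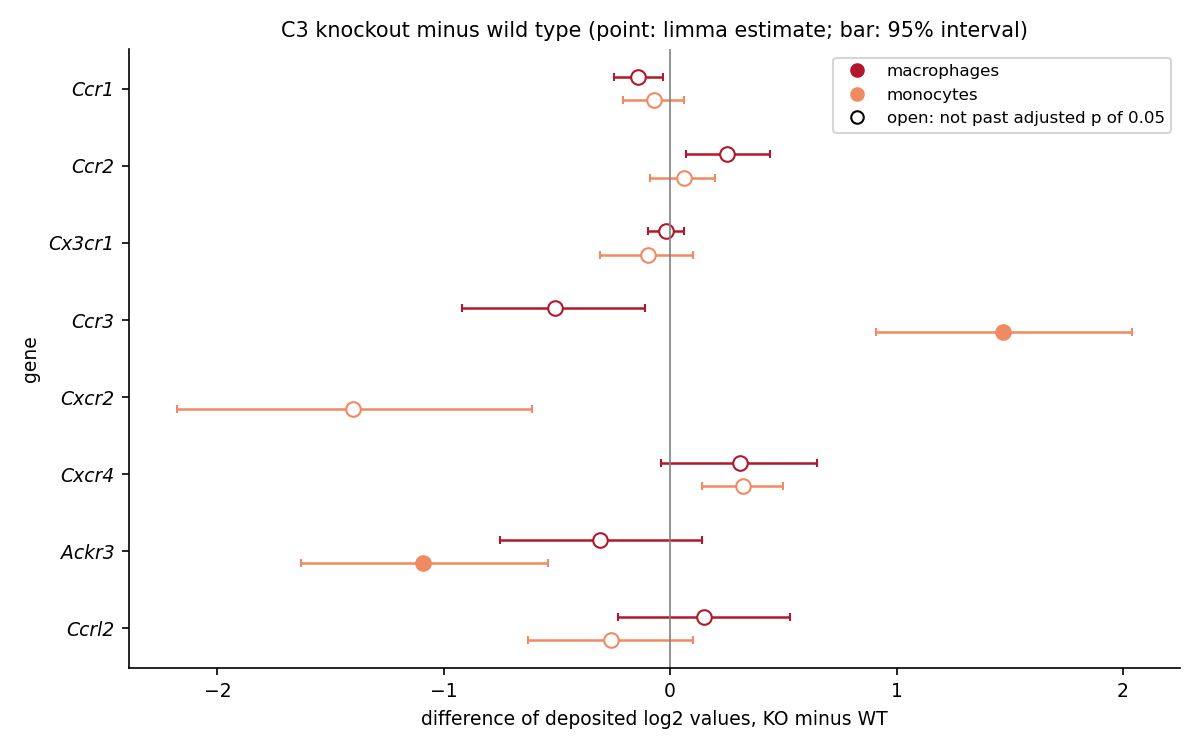
Difference of the deposited log2 values, knockout minus wild type, with 95% intervals from limma, for the 8 genes in macrophages (dark red) and monocytes (orange). Filled points passed an adjusted p of 0.05 and Cxcr2 was not tested in macrophages. Ccr3 at 1.47 and Ackr3 at -1.09 in monocytes are the filled points, and Ccr3 lies on opposite sides of 0 in the 2 cell types.

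The promoters of Ccr3, at chr9:124021721-124022020, and of Ackr3, at chr1:90203730-90204029, both on the plus strand (RefSeq, GRCm38.p6), are shown because these were the receptors called between genotypes in monocytes. Capitals mark matches to the same patterns.
Ccr3: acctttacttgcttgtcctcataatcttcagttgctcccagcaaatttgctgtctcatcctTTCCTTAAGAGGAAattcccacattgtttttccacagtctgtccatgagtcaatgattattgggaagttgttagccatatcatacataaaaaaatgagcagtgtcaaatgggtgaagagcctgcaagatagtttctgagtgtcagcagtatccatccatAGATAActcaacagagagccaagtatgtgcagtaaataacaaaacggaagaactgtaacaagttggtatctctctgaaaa
Ackr3: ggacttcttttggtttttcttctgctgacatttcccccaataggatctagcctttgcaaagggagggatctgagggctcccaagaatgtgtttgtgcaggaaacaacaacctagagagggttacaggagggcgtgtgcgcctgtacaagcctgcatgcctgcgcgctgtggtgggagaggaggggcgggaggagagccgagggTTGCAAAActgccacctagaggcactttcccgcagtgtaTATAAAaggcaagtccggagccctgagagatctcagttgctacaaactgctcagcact
Ccr3 held GAGGAA from base -181 to -176, directly after a TTNNGNAA match from -189 to -182, so the 2 patterns form a single run of capitals. It also held AGATAA, the site of GATA factors, from -30 to -25. Ackr3 held TTNNGNAA from -47 to -40 and TATAAA from -8 to -3. Neither window held ACGTG. These are letter matches in a fixed window.

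**Figure D4:**
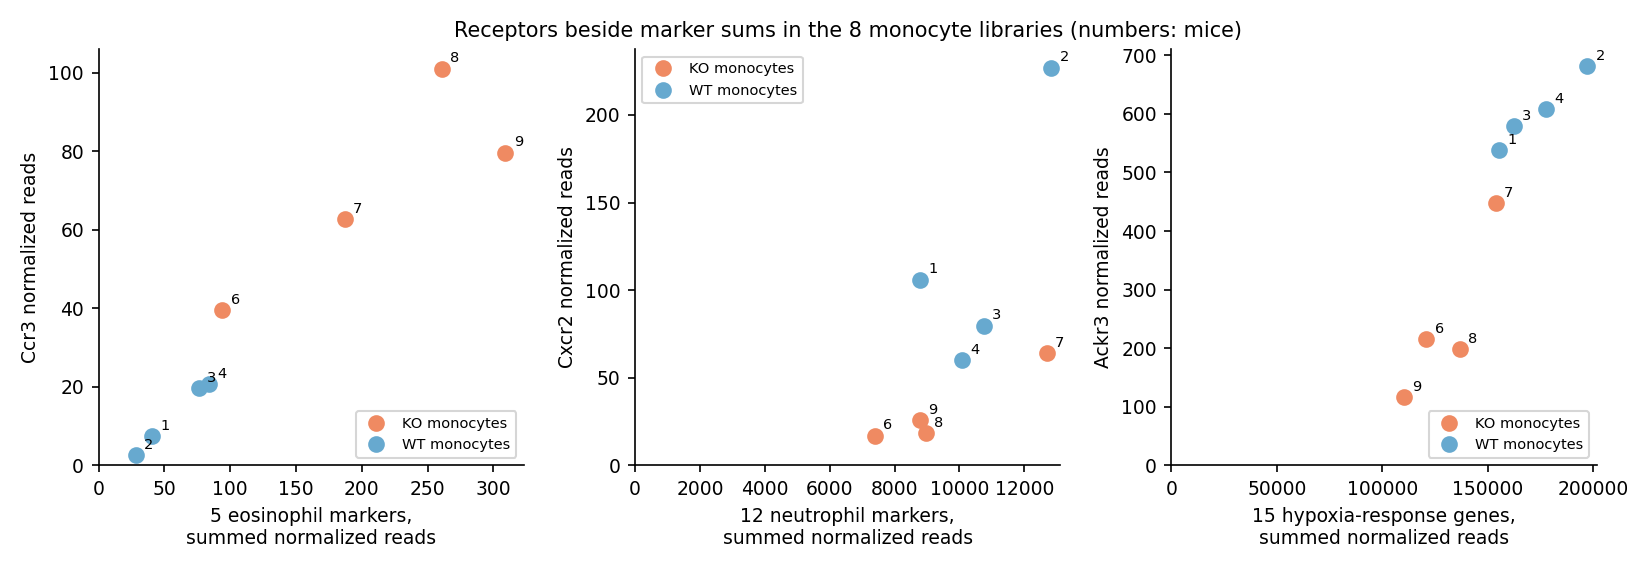
Normalized reads of Ccr3, Cxcr2 and Ackr3 (vertical, linear from 0) against the summed normalized reads of 5 eosinophil, 12 neutrophil and 15 hypoxia-response genes (horizontal, linear from 0) in the 8 monocyte libraries, with orange for knockout, blue for wild type and the mouse number beside each point. The genotypes do not overlap in Ccr3, in Ackr3, in the eosinophil sum or in the hypoxia sum, while the neutrophil sums overlap. On average Alox15 makes up most of the eosinophil sum in knockout libraries, and Csf3r and Mmp8 most of the neutrophil sum in both genotypes. The nearest libraries, knockout against wild type, have eosinophil sums of 93.9 and 83.9 and hypoxia sums of 153610 and 155141. Any measures that part the genotypes separate the same libraries, and a link between gene and sum was not tested.

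The ligands of these receptors were examined beside them. Of 21 ligand genes 17 were tested in each cell type. Cxcl11, a ligand of ACKR3 and of CXCR3, rose in knockout mice in both, with 837, 920, 1207 and 792 normalized reads in knockout macrophages against 145, 184, 194 and 110 in wild-type macrophages. In monocytes it had 6649, 3734, 5401 and 4084 normalized reads in knockout mice, against 853, 657, 736 and 501 in wild-type mice. The log2 differences were 1.67 ± 0.12 in macrophages and 2.13 ± 0.15 in monocytes (limma, adjusted p = 1.17e-05 and 4.26e-05). Ccl8, a ligand of several CC receptors, fell in knockout macrophages to 93.9 normalized reads, against 196 in wild-type macrophages (limma, adjusted p = 0.0162). No other ligand was called between genotypes, where 5.7% of all tested genes were called in macrophages and 3.32% in monocytes. The eotaxin Ccl11 was at 0 in all wild-type libraries and near 0 in knockout mice. It had 1 read in all in knockout macrophages and 4 in knockout monocytes, with 3 of 4 libraries at 0 in each. Ccl24, which also acts on CCR3, averaged 215 normalized reads in knockout monocytes and 189 in wild-type monocytes.

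Between the cell types 13 of the 21 ligands differed in knockout mice, 3 higher and 10 lower in macrophages. There 60.5% of all tested genes did, 31.0% higher and 29.6% lower. In wild-type mice 16 ligands differed, 4 higher and 12 lower, where 63.4% of all tested genes did, 31.7% higher and 31.7% lower. The 21 include Ccl11, Cxcl12 and Rarres2, whose reads were too few to be tested, while the shares are of tested genes only. The counts were not tested against those shares, and most genes differed between these cell types. Ccl12 and Ccl8, both monocyte attractants, stood higher in macrophages, Ccl12 by 6.6-fold in knockout mice and 8.76-fold in wild-type mice. Ccl2 was lower in macrophages, at 5014 against 11891 normalized reads in monocytes of knockout mice and at 5942 against 10699 in those of wild-type mice. Cxcl3, a CXCR2 ligand, was lower in macrophages by a log2 difference of -2.99 in knockout mice and -3.95 in wild-type mice, and Ccl6, a CCR1 ligand, by -2.3 and -1.84 in that order of genotypes (limma, adjusted p at most 0.00197 for these 4 values).

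Among 14 other chemokine receptors found, 12 had group means under 100 normalized reads in all 4 groups, and 7 of those stayed under 10. Cxcr3, the receptor for CXCL9, CXCL10 and CXCL11, rose in knockout macrophages, with 353, 435, 355 and 448 normalized reads against 270, 267, 282 and 269 in wild-type macrophages (log2 difference 0.4 ± 0.08, limma, adjusted p = 0.0104). It was higher in macrophages than in monocytes in both genotypes, at 398 against 62.7 normalized reads in knockout mice and 272 against 71.1 in wild-type mice. Ccr7, which guides cells to lymph nodes, was lower in macrophages than in monocytes in both genotypes. Within knockout mice Ccr9 was also lower in macrophages than in monocytes (limma, adjusted p = 0.0145).

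On mouse chromosome 9, Ccr1, Ccr3 and Ccr2 lie close together, with Ccr3 starting 59.8 kb and Ccr2 139.8 kb from Ccr1. These 3 genes did not all share a direction between macrophages and monocytes. Ccr1 and Ccr2 were lower in macrophages of both genotypes, while Ccr3 between Ccr1 and Ccr2 changed sign with genotype. Of the 17 receptor genes and neighbours listed on that chromosome, 15 were tested between genotypes in monocytes and Ccr3 was the 1 called. Over all tested genes 3.32% were called there. None of the 13 tested in macrophages was called, against 5.7% of all tested genes. The gene of the knockout, C3, lies on chromosome 17, and none of the 8 receptors does: 5 are on chromosome 9 and 3 on chromosome 1.

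**Figure D5:**
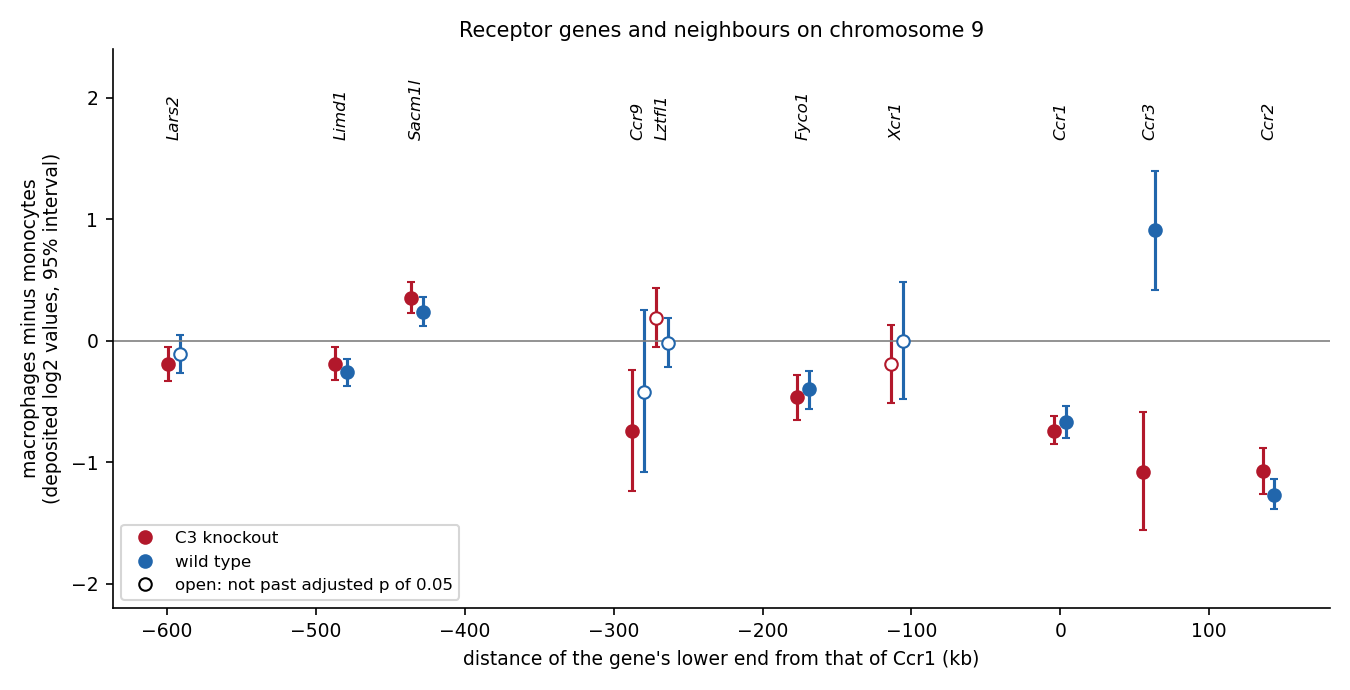
Macrophages minus monocytes (deposited log2 values, limma estimate and 95% interval) for tested receptor genes and neighbours on chromosome 9 up to Ccr2, by distance in kb from Ccr1. Red is knockout, blue is wild type, filled points passed an adjusted p of 0.05. Ccr3 lies at -1.08 in knockout mice and 0.91 in wild-type mice, between Ccr1 and Ccr2, which lie below 0 in both.

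By Pearson correlation of the deposited log2 values over the 16 libraries, the genes most like each receptor included Wdr12 and Cep89 for Cx3cr1 (r = 0.991 each), and were for Ccr2 Rab27a, Lilra6 and Arap2 (0.986 to 0.992). Ccr1 was nearest to Ptpn1, Map2k1 and Adgre5 (0.987 to 0.99). Such values mostly follow the difference between the cell types, which all 16 libraries share. Ackr3 was nearest to Fbxo38, Bnip3l and Ero1l (0.98 to 0.982), and Cxcr2 to Ibtk, Ppp1r3b and Fam169b (0.976 to 0.979). Ccrl2 was nearest to Vopp1, Tgif1 and Zfp36, with r of 0.925 to 0.952 over all libraries and 0.92 to 0.98 for deviations from group means. Cxcr4 was nearest to Atg16l2, Atf4 and Tmem259 (0.935 to 0.959). Ccr3, the rare gene with the crossed pattern, had the weakest likeness, to Trim26, Zscan20 and Mak16 (0.796 to 0.837).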

How the data were processed

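RNA of each sorted sample (5 ng) was amplified with SMART-Seq v4 and sequenced on an Illumina NextSeq, per the labels' protocols. The submitters' processing notes name bcl2fastq 2.19.0.316, STAR 2.7.2b, DESeq2 and build GRCm38, while annotation and counting settings were not given in the sources used here. Log2 values of 30819 genes in 16 libraries were deposited, along with 2 tables of genotype comparisons with log2 fold changes, standard errors, p-values, a test score and a mean signal over all libraries. Those fold changes run wild type over knockout, as their signs against the matrix showed for 100% of called genes.

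The log2 values behaved as a regularized log transform. They were inverted to whole reads and size factors, and 75.4% of values came out whole within 0.05 of a read (genes averaging 1 read or more, 98.4% for those averaging 10 to 100, 65.3% for 100 to 1000 and 27.1% above 1000, where Ccr1, Ccr2, Cx3cr1, Cxcr4 and Ccrl2 lie). Recovered values above 1000 missed whole numbers by a median of 0.00458%. Differences were tested with limma 3.58.1 (R 4.3.3, trend, robust) on the deposited log2 values, over genes with a linear value of at least 10 in at least 4 libraries, with Benjamini-Hochberg adjustment over all genes tested and a call under 0.05. Comparisons were fitted on their 8 libraries alone and the interaction on all 16. The scripts were tested on simulated data. Python used scipy for exact permutation tests. Replicates were separate mice. Since both cell types carry the same mouse numbers, that number pairs libraries across cell types, and deviations from group means of same-mouse libraries correlated at 0.052 to 0.211 in knockout mice and 0.031 to 0.417 in wild-type mice. Those of different mice correlated at -0.227 to 0.136 in knockout mice and -0.323 to 0.188 in wild-type mice. For knockout mouse 6 and wild-type mouse 3 a different mouse gave a higher value than the same mouse. No pairing exists between genotypes. Gene places come from GENCODE M21 and promoters from RefSeq, on GRCm38, where all 8 genes matched. Ccrl2 has several RefSeq starts. The genes and all lists were chosen with earlier results of these data known. All 8 receptors are named, and from the lists the called genes with the smallest adjusted p, at most 4 per list and comparison. Ccl11, Ccl24, Cxcl12, Rarres2, S100a8, Lcn2, Elane, Ngp, Camp, Ltf, Csf3r, Mmp8, Pecam1, Cdh5 and the gate and eosinophil markers fall outside that rule and were named after their values were seen. Reads from a kit that does not mark strand cannot be split between a gene and its antisense partner. Some list genes are not reported here.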

Additional observations from a re-analysis of the deposited data

Results flagged for a closer look

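Ccr3 was marked because its knockout effect differed between the cell types, at -1.98 on the log2 scale for the effect in macrophages minus that in monocytes (limma interaction, adjusted p = 0.00845). All 4 knockout monocyte libraries lay above the wild-type ones, and the macrophage groups overlapped. Over 23 other settings the value ranged from -3.52 to -1.8 and the adjusted p from 0.00326 to 0.026.

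Ccr2 in knockout monocytes was marked because mouse 9 stood apart, with 48056 normalized reads against 39482 to 39583 in mice 6 to 8, a gap of 0.987 of the group's whole range. That is past Dixon's 95% critical value for 4 samples. Of 32 groups of 4 examined this was the 1 past it, and chance alone gives about 1 in 20. Mouse 9 also had the highest Ccr2 of the knockout macrophages, at 18935 normalized reads, and the lowest Ccrl2 in both cell types. Without it the genotype difference of Ccr2 in monocytes was 0.0 in place of 0.06 on the log2 scale, and neither passed.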

How the results depend on the processing

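Of 702 member values recomputed under other settings, 677 kept their direction and their side of the threshold, 7 lost a call, 10 gained one and 8 changed sign. All 7 losses were Ackr3 in monocytes on leaving out a library. The sign changes were those of the Cxcr4 interaction, which was -0.01, became 0.01 on the log2 scale of normalized reads (chosen after seeing the data) and ranged from -0.11 to 0.11 on leaving out a library. The number of receptors called in macrophages between genotypes was 0 and became 1 in the authors' deposited table (Ccr2), which gave 3 in monocytes. There it was 2, became 1 under the stricter filter of 50, which no longer tests Ccr3 and Cxcr2, and ranged from 1 to 3 on leaving out a library. The interaction count of 1 became 0 under that filter for the same reason and ranged from 1 to 2 (Cxcr2 added without knockout monocyte mouse 7, limma, adjusted p = 0.0259). That added call carries no weight of its own, since macrophages held 1 Cxcr2 read in each genotype. Between cell types the counts, Cxcr2 included, ranged from 6 to 7 in knockout mice and from 7 to 8 in wild-type mice on leaving out a library, since Cxcr2 then lacks the 4 libraries that the filter needs. With the mouse as a replicate block they were 8 and 8, the added call being Ccrl2 in knockout mice, and the interaction count was 1. The block changed no other member call. Over all genes, calls between genotypes in monocytes were 427 in the main setting, 981 with all 16 libraries in 1 fit, 296 without a filter and 237 to 459 on leaving out a library, and those in macrophages were 717 and 458 to 656. Calls of the interaction were 81, against 139 with the mouse as a random block and 48 to 125 on leaving out a library. Count tests with edgeR and DESeq2 on the recovered reads were not run. Depth limits Ccr3 and Cxcr2 most, at 227 normalized reads or fewer per library.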

Other observations

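Other chemoattractant receptors were measured beside the chemokine receptors, 12 genes that all passed the filter. In knockout monocytes Gpr183, the receptor for oxysterols, rose to 4357 normalized reads, against 2176 in wild-type monocytes (limma, adjusted p = 7.51e-05). C5ar2, the second receptor for complement C5a, fell in both cell types, to 383 normalized reads in knockout macrophages, against 618 in wild-type macrophages (limma, adjusted p = 0.00562), and to 444 in knockout monocytes, against 667 in wild-type monocytes (adjusted p = 0.00561). P2ry12, an ADP receptor, also fell in both (limma, adjusted p = 0.0106 in macrophages and 0.00643 in monocytes). In macrophages the leukotriene B4 receptor Ltb4r1 was called as higher, at 324 normalized reads in knockout and 128 in wild-type macrophages (limma, adjusted p = 0.00124), and S1pr1 as lower, at 276 and 572 (adjusted p = 0.000688). Whether these effects differ between the cell types did not pass a test for any of the 12 genes (limma interaction, smallest adjusted p = 0.0687). In monocytes Fpr1, a formyl peptide receptor, was called as lower (limma, adjusted p = 0.0435).

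Of 23 genes that carry or end the receptor signal, 3 were called between genotypes in macrophages and none in monocytes, where 4 had an unadjusted p under 0.05. Over all tested genes 5.7% were called in macrophages and 3.32% in monocytes. Plcb2 and Grk6 rose and Pik3cg fell in knockout macrophages, by at most 0.26 on the log2 scale (limma, adjusted p between 0.0152 and 0.0497). Between cell types the differences were larger. Grk5, a kinase that switches receptors off, had 34.3 normalized reads in macrophages against 443 in monocytes of knockout mice, and 19.6 against 345 in wild-type mice. Rgs18, a brake on G proteins, had 27.9 against 546 in knockout mice and 15.7 against 368 in wild-type mice (limma, adjusted p at most 1.32e-08 for these 4 values). Among dendritic cell markers in monocytes 1 of 8 tested rose and 1, Itgax, fell between genotypes, against 1.4% and 1.92% of all tested genes. Cd209a rose, at 421 normalized reads in knockout monocytes and 9.12 in wild-type monocytes (limma, adjusted p = 0.00418).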
